A study of Mus musculus with 11 samples.

Results

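The genes described here encode the basement membrane and the other extracellular matrix of brain vessels, and the question was which cell of the vessel wall carries the transcripts of which chain. They are 35 genes of the 32287 features in the count matrices, taken by symbol: 6 collagen IV chains, 10 laminin chains, 2 nidogens, the heparan sulphate and basement membrane zone components Hspg2, Agrn, Col15a1 and Col18a1, and 13 adhesive, elastic fibre and fibrillar matrix genes. The study set mice with a transgene for human NOTCH3 bearing the R182C change, a cause of the small vessel disease CADASIL (R182C-TgN3, labelled TgN3 R182C, here the CADASIL mice), against mice whose human NOTCH3 transgene is unchanged (WT-TgN3, labelled TgN3, here the control mice). The sample titles name a separate transgenic line for each group, Tg350 for all CADASIL and Tg100 for all control mice, so the R182C change and the line cannot be told apart. Brain vessel fragments were pulled out with CD31 antibody beads, digested to single cells and sequenced as 10x Genomics 3′ libraries, with 1 mouse in each library. There were 3 CADASIL mice and 2 control mice aged 9 months, and 3 CADASIL mice and 3 control mice aged 6 months. All 11 mice were untreated and had mouse Notch3 transcripts beside the human transgene, both sexes were present, and each of the 4 batches in the labels held a single age. The promoter that drives the transgenes is not given in the sources used here.

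A vascular basement membrane is a sheet of linked networks that endothelial cells share with the mural cells around them. Laminins, trimers of an α, a β and a γ chain, assemble at the cell surface and bind integrins and dystroglycan, collagen IV trimers form the covalently cross-linked second network, and nidogens and perlecan bridge them. In the brain this sheet lies between endothelium, pericytes or smooth muscle and the astrocyte endfeet, and mutations in COL4A1 and COL4A2 cause a hereditary small vessel disease of their own.

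The libraries held 64215050, 42317151 and 46672613 UMIs in the 9-month CADASIL mice and 27899969, 17550806 and 45597051 in the 6-month CADASIL mice. Control libraries held 21309847, 43857411 and 31933696 UMIs at 6 months and 45349507 and 56809906 at 9 months. Between 3416 and 10430 barcodes were listed per library, with a median of 3521 to 7615 UMIs each. Libraries shared barcodes: the 55 pairs of libraries had a median of 16 barcodes in common, and the pair R182C-TgN3 6 months replicates 1 and 2 had 350, or 10.2% of the smaller library. Barcodes found in several libraries were left out (1722 of 61625 that passed the quality limits), leaving 59903 cells. The genotype counts with these barcodes kept are given with the processing limits.

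Cells were sorted into classes by lists of marker genes that contain none of the 35 genes. This gave 19456 capillary, 4603 arterial, 2322 venous and 1788 fenestrated endothelial cells (EC), 1876 smooth muscle cells (SMC), 541 pericytes and 102 fibroblasts. The fenestrated EC were low in brain barrier markers, at 1623 to 2248 scaled counts (CPM, UMIs of a gene per 1000000 UMIs of the class in a mouse) against 10730 to 12080 in capillary EC. The summed 10 endothelial markers stood at 17470 CPM in capillary EC, 261.9 in SMC, 716 in fibroblasts and 1083 in pericytes, so pericytes held 6.2% of the capillary level. SMC markers (8 genes) summed to 33560 CPM in SMC and 1122 in pericytes, where Cnn1 was at 0, and pericyte markers summed to 20240 CPM in pericytes and 720.5 in SMC. Fibroblast markers were at 7543 CPM in fibroblasts, 293.8 in pericytes and 103 in SMC. In SMC Slc6a13, Dpep1 and Slc22a6 were at 0. Human NOTCH3 was read mainly in mural cells, at 1230 ± 308 CPM (SD, n = 6) in pericytes and 236 ± 55.8 CPM in SMC of CADASIL mice, against 495 ± 88.0 (n = 4) and 35.7 ± 25.6 CPM (n = 5) in control mice.

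Among the 7 vessel classes, each of the 35 genes had its highest mean level outside the capillary and venous EC. The fibroblasts held the highest mean level of 14 genes, pericytes of 7, SMC and fenestrated EC of 5 each, and arterial EC of 4. Some of these means did not hold in most mice. Fibroblasts exceeded the next class in 4 of 10 mice for Col15a1 and Col4a6, 4 of 9 for Lamc3 and 3 of 9 for Nid1. The genes of pericytes include Lamb3 at 0.314 CPM, above SMC in 1 of 10 mice. Summed over the 35 genes, matrix transcripts made up 9242 ± 559 CPM of pericytes (n = 10), 8153 ± 1937 of fibroblasts (n = 10), 7963 ± 627 of SMC, 7532 ± 527 of fenestrated EC, 5225 ± 419 of arterial EC, 4447 ± 390 of capillary EC and 3055 ± 274 of venous EC (n = 11 each). Microglia, gated in the same way as a cell outside the vessel wall, stood at 1462 ± 169 CPM, and lymphocytes at 264 ± 58.9. For 11 of the 35 genes the per-mouse values in the highest class lay above every value in the next class. How many of all genes lay apart in this way was not counted, so the 11 are not a result about this list. These levels count UMIs from 3′ ends of transcripts and are not scaled to length, and a CPM level also depends on the other RNA of the class.

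**Figure D1:**
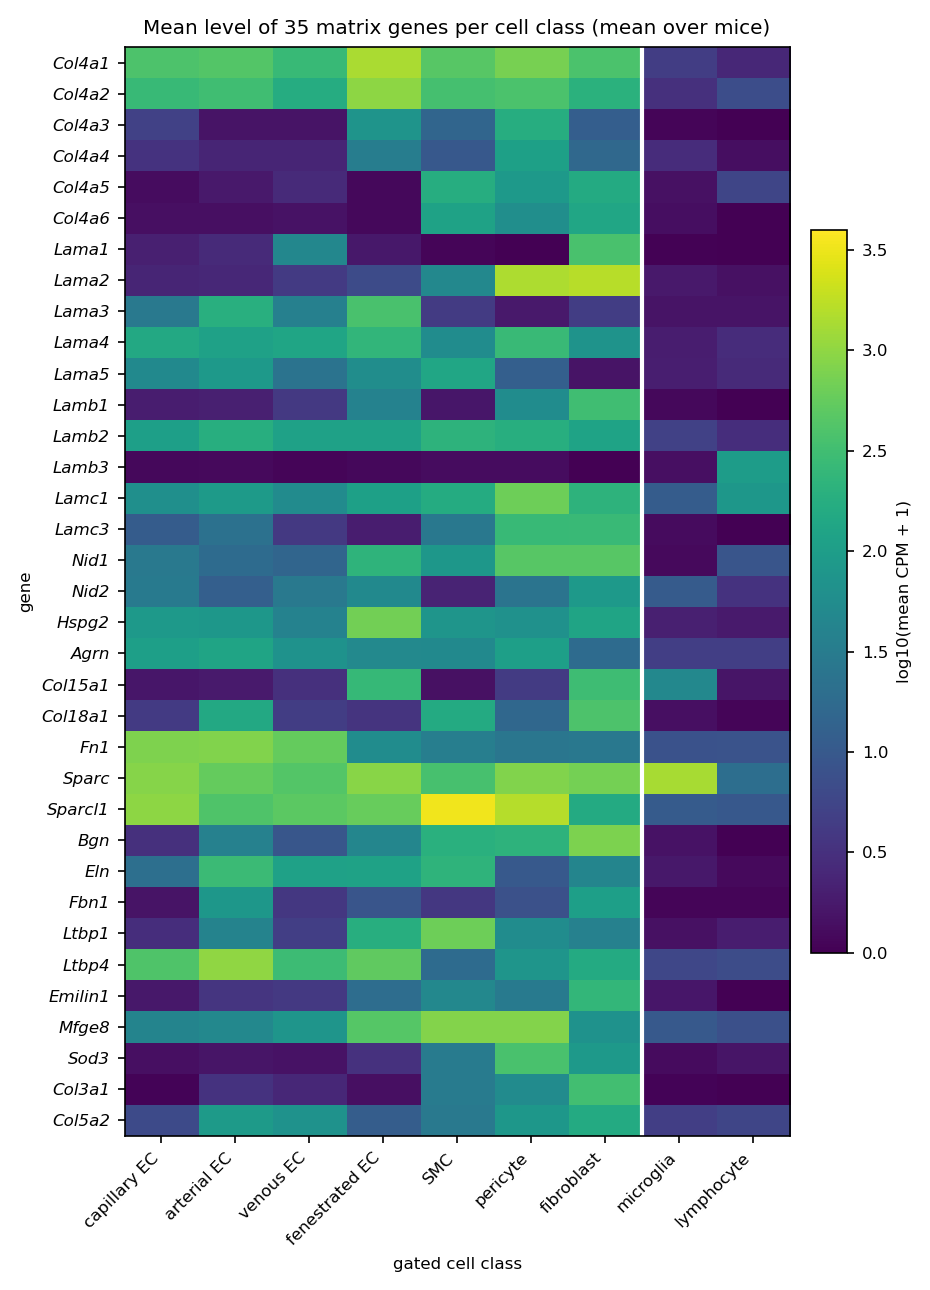
Mean level of each of the 35 genes, as log10 of CPM + 1 (colour), in the 7 vessel classes and in microglia and lymphocytes, averaged over mice (11 mice, 10 for pericytes, fibroblasts and lymphocytes). Lama2 was high in fibroblasts (1643 CPM) and pericytes (1424 CPM), Lama5 in SMC (133.5 CPM), Fn1 in arterial (837 CPM) and capillary EC (791 CPM), and Lamb3 stayed at or under 0.314 CPM in the vessel classes.

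The laminin α chain, which carries the main cell-binding domain of the trimer, differed from class to class. Lama2, the α2 chain known from muscle and from perivascular membranes, reached 808 CPM in the lowest, 1606 in the median and 2676 in the highest mouse in fibroblasts (n = 10), and 1236, 1374 and 1700 in pericytes. Both classes were far above SMC, at 46.9 ± 17.6 CPM, and above every endothelial class, none of which passed 5.58 CPM on average. The fibroblast and pericyte values of Lama2 overlapped, and fibroblasts were the higher of the pair in 5 of 9 mice. At least 1 Lama2 UMI was found in 494 of 541 pericytes (91.3%, median depth of the class 3142 UMIs) against 0.395% of microglia (median 5076 UMIs), and in 88.2% against 0.186% after thinning to 2000 UMIs per cell, which left out 99 pericytes. Lama4, the α4 chain made by endothelium in most organs, ran from 213.9 through a median of 271 to 357.5 CPM in pericytes, above fenestrated EC (232 ± 68.3) in 8 of 10 mice. It was the most abundant α chain of capillary EC, at 147 ± 31.9 CPM and 64.1 ± 3.92% of their laminin α UMIs.

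Lama5, the α5 chain of the laminin-511 trimer, was lowest at 109.5, had a median of 134 and was highest at 153 CPM in SMC (n = 11). All of these lay above the arterial EC, at 74.6 to 105.9 CPM, and capillary EC held 50.7 ± 4.85 CPM. Pericytes had 11.1 CPM and fibroblasts 0.531, so Lama5 and Lama2 were high in different cells outside the endothelium. Among laminin α UMIs, Lama5 made up 56.2 ± 6.56% in SMC, while Lama2 made up 83.1 ± 1.81% in pericytes and 80.0 ± 13.7% in fibroblasts.

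Lama3, the α3 chain best known from epithelial laminin-332, was read in endothelium. Its fenestrated EC values had a minimum of 185, a median of 393 and a maximum of 445 CPM, and its arterial EC values ran from 127.8 through 184 to 258.6 CPM. Fenestrated EC exceeded arterial EC in 11 of 11 mice, and all other vessel classes were low, from 0.746 CPM in pericytes to 36.1 in venous EC. Lama3 was the largest part of laminin α UMIs in arterial EC (47.0 ± 3.63%) and in fenestrated EC (55.1 ± 6.25%), against 12.2 ± 2.36% in capillary EC. Lama1, the α1 chain of embryonic and leptomeningeal membranes, spread from 69.1 through a median of 266 to 1343 CPM in fibroblasts. Venous EC came next at 27.0 to 73.4 CPM (46.0 ± 17.1), well above capillary EC at 1.08 and arterial EC at 1.71. The 10 pericyte libraries used held 0 Lama1 UMIs, so it was not detected there at a depth of 74095 to 472150 UMIs.

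**Figure D2:**
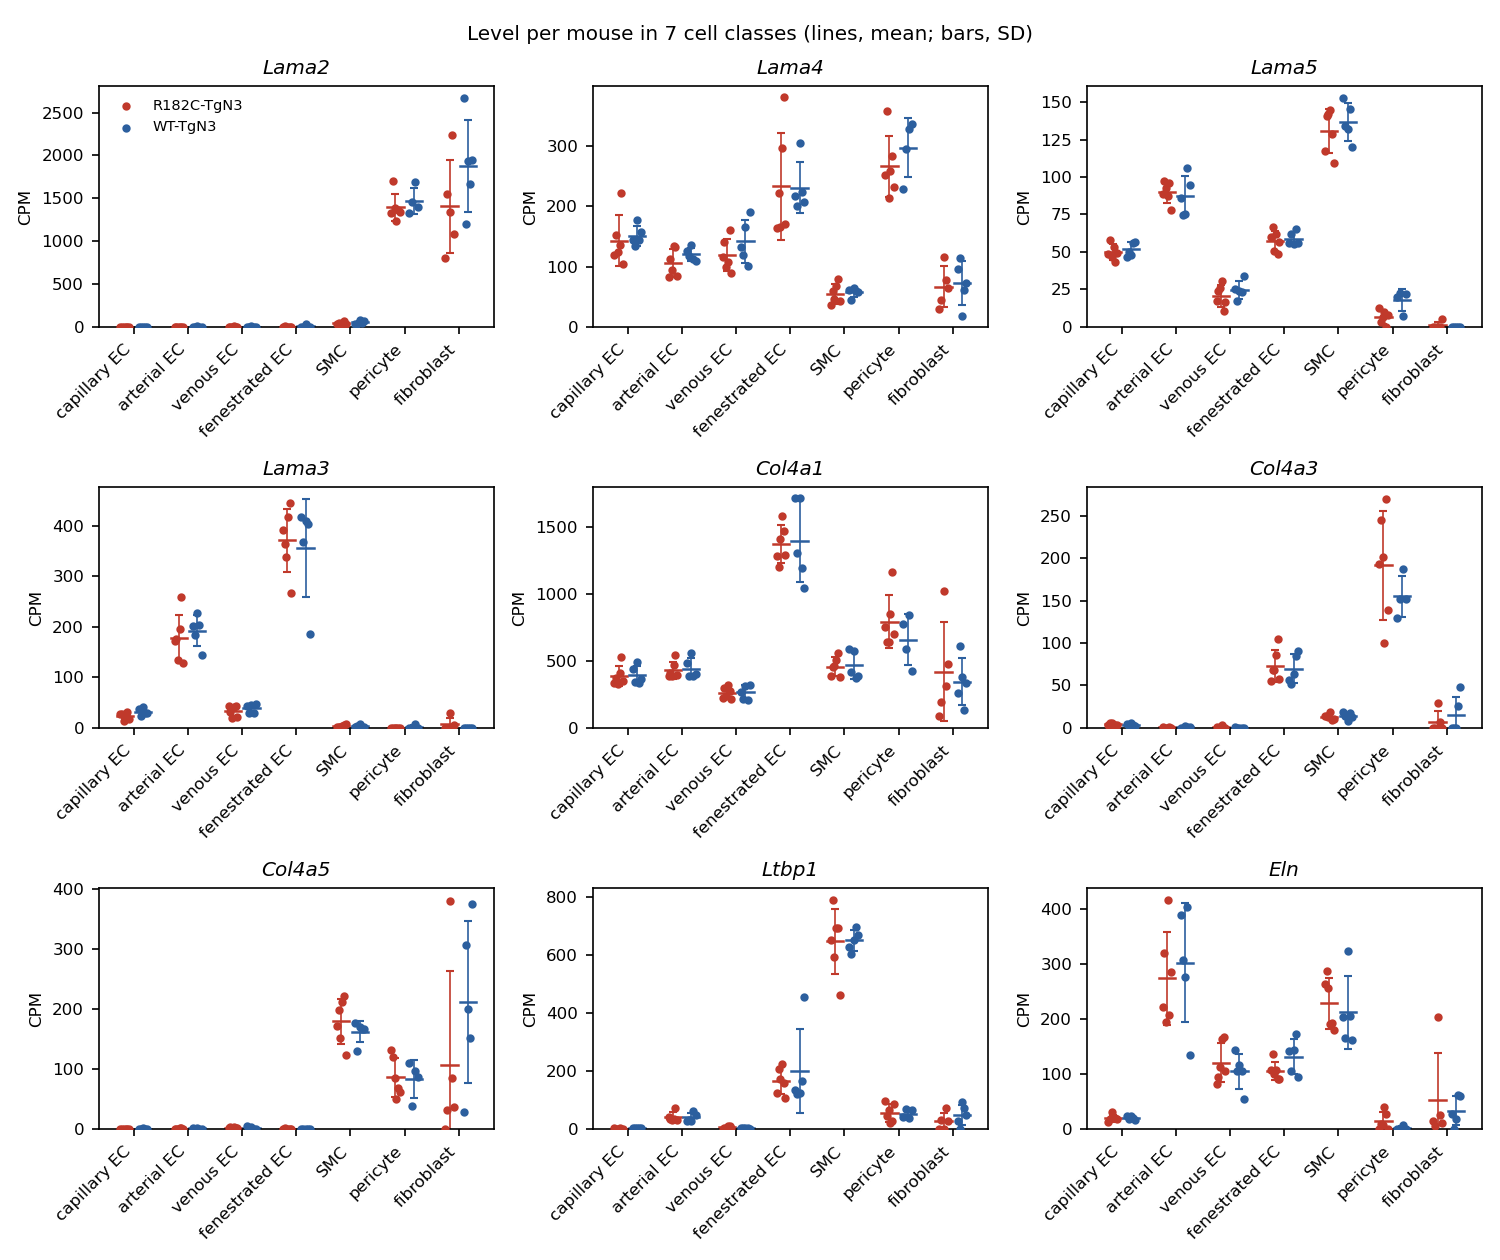
Level in CPM of 9 genes in each vessel class, each point being a mouse (red R182C-TgN3, blue WT-TgN3), with a line at the mean and a bar of 1 SD. In SMC the 11 Lama5 values (109.5 to 153 CPM) lie above the arterial values (74.6 to 105.9 CPM), and red and blue points are intermixed in the classes where these genes are high.

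Among the β and γ chains, which complete the trimer, levels also differed by class. Lamb1, the β1 chain, ranged from 208.6 through 304 to 431.6 CPM in fibroblasts. Pericytes (55.5 ± 21.0 CPM) and fenestrated EC (38.4 ± 18.4 CPM) followed without touching that range, and the other classes held 2.92 CPM or less. Lamb2, the β2 chain of mature vessel and glomerular membranes, went from 187 through 211 to 267 CPM in SMC. It was spread over all classes, with 108 ± 7.74 CPM in capillary EC as the lowest mean, and it made up 97.4 to 99.6% of laminin β UMIs in capillary, arterial and venous EC and SMC. Lamb1 took a larger part elsewhere, with 23.4% of laminin β UMIs in pericytes, 24.5% in fenestrated EC and 71.8 ± 12.3% in fibroblasts. Lamb3, the β3 chain that pairs with α3 in laminin-332, stayed between 0 and 0.314 CPM on average in the 7 vessel classes, also in the arterial and fenestrated EC that carried Lama3.

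Lamc1, the γ1 chain present in most laminins, stood at 466.5 in the lowest, 666 in the median and 881 CPM in the highest mouse in pericytes. No mouse reached that range in another class, with fibroblasts next at 211 ± 160 CPM and SMC at 163 ± 24.2. In the edgeR fit Lamc1 was called lower in fibroblasts than in SMC (-0.53), with 5 of 10 mice on each side. The call was lost with DESeq2 size factors (-0.37), without R182C-TgN3 9 months replicate 2 (-0.36) and without WT-TgN3 9 months replicate 1 (-0.30). Lamc3, the γ3 chain, was shared by fibroblasts, at 210 through 265 to 382 CPM, and pericytes, at 208 through 258 to 349 CPM. These ranges overlapped, with fibroblasts higher in 4 of 9 mice, and SMC were next at 26.7 CPM. Lamc1 made up 70.8 ± 5.54% of laminin γ UMIs in pericytes and 38.3 ± 19.4% in fibroblasts.

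Collagen IV chains, whose α1 and α2 chains form the common vascular trimer, were most abundant in fenestrated EC. Col4a1 there ran from 1045 through 1304 to 1713 CPM, and Col4a2 from 626 through 891 to 1287 CPM. Fenestrated EC were above pericytes (737 ± 195 CPM of Col4a1) in 10 of 10 mice. Smooth muscle had 462 ± 82.4, arterial EC 436 ± 66.5, capillary EC 390.0 ± 67.9, fibroblasts 382 ± 274 and venous EC 263 ± 44.7 CPM of Col4a1, and the neighbours in this order from SMC to fibroblasts overlapped. For Col4a2 the order of the 7 classes was identical, from 965.5 ± 197 CPM in fenestrated EC to 167 ± 30.8 CPM in venous EC.

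The α3 and α4 chains, which with α5 build the trimer of the glomerular membrane, were highest in pericytes. Col4a3 reached 99.7, 169 and 270 CPM in the lowest, median and highest pericyte library, and Col4a4 reached 22.8, 124 and 150 CPM. Fenestrated EC were the only other class with more than 20 CPM of either, at 71.5 ± 17.2 CPM of Col4a3 and 32.5 ± 9.80 of Col4a4. Col4a5, the α5 chain, lay between 123.7 and 222 CPM in SMC with a median of 170, and fibroblasts spread from 0 to 379.5 CPM (159 ± 148). Col4a6, the α6 chain, spread from 0 through 81.3 to 555 CPM in fibroblasts and from 71.0 through 105 to 162 CPM in SMC. SMC exceeded fibroblasts in Col4a6 in 6 of 10 mice. In the edgeR fit described with the class comparisons both chains were called lower in fibroblasts than in SMC (Col4a5 -0.83, Col4a6 -0.70), and the Col4a6 call was lost with DESeq2 size factors (-0.53), with no limit on markers of other classes (-0.67), and without R182C-TgN3 9 months replicate 2 (-0.54). Pericytes held 84.6 ± 30.5 CPM of Col4a5 and 60.1 ± 24.9 of Col4a6. All 4 endothelial classes were nearly empty of both chains, at 1.72 CPM or less. A Col4a5 UMI was found in 63.9% of SMC (median depth 8033 UMIs) and in 0.144% of capillary EC (median depth 4465 UMIs), and after thinning to 2000 UMIs in 26.0% and 0.0600%.

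The nidogens, which link the laminin and collagen IV networks, differed in the cells that carried them beside fibroblasts. Nid1 went from 266 through 357 to 730 CPM in fibroblasts and from 332 through 447 to 594 CPM in pericytes. These classes overlapped, with fibroblasts higher in 3 of 9 mice, and fenestrated EC were next at 216 ± 22.3 CPM. Nid2 went from 29.9 through 61.98 to 233.5 CPM in fibroblasts and averaged 50.6 ± 5.80 CPM in fenestrated EC. It was low in SMC (1.31 CPM), where Nid1 stood at 78.7 CPM.

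Hspg2 encodes perlecan, the large heparan sulphate proteoglycan of the membrane. In fenestrated EC it lay at 495 in the lowest, 690 in the median and 831 CPM in the highest mouse. No value in another class came near, since fibroblasts followed at 127 ± 43.9 and capillary EC at 85.3 CPM. Agrn, the proteoglycan agrin that also binds dystroglycan, was highest in a different endothelial class, with 110.7, 119 and 144 CPM in arterial EC. Arterial EC exceeded capillary EC (107 ± 7.14 CPM) in 11 of 11 mice, while fenestrated EC held 48.8 CPM. Col15a1, a collagen of the outer membrane zone, ran from 31.1 through 211 to 1095 CPM in fibroblasts and from 193 through 270.1 to 290 CPM in fenestrated EC, and no other vessel class passed 3.27 CPM. These ranges overlapped, with fibroblasts higher than fenestrated EC in 4 of 10 mice. Col18a1, the source of endostatin, ran from 150 through 333.5 to 942.5 CPM in fibroblasts, with SMC at 155.5 ± 25.1 and arterial EC at 150 ± 32.7 CPM and pericytes at 14.9 CPM. In the edgeR fit Col18a1 was called higher in fibroblasts than in SMC (0.94). The difference was -0.08 with the limit on other classes halved and -0.44 with up to 20% mitochondrial UMIs, without a call.

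Fn1 encodes fibronectin, an adhesive glycoprotein bound by several integrins, and its transcripts were endothelial. Arterial EC ran from 658 through 777 to 1125 CPM and capillary EC from 657 through 757.5 to 948 CPM. The ranges of arterial and capillary EC overlapped, arterial EC being higher in 9 of 11 mice, while fenestrated EC (54.5 CPM) and the 3 non-endothelial classes (24.9 to 33.1 CPM) were low. Sparc, a collagen-binding glycoprotein, was high in all classes, from a lowest of 734 through 863 to 1158 CPM in fenestrated EC down to 355 CPM on average in SMC. Its relative Sparcl1 had its highest values in SMC, at 2790, 3360 and 3968 CPM in the lowest, median and highest mouse. Pericytes (1558 ± 161 CPM) and capillary EC (984 ± 109 CPM) came next, below the SMC range. Bgn, the small proteoglycan biglycan, lay at 494 through 762 to 963 CPM in fibroblasts. Pericytes (213 ± 54.4) and SMC (193 ± 39.8) held less, and capillary EC 2.17 CPM.

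Elastic fibre genes differed within the group. Eln, the elastin of the internal elastic lamina, went from 134 through 286 to 416 CPM in arterial EC and from 163 through 203.5 to 324 CPM in SMC. The arterial and SMC ranges overlapped, with arterial EC higher in 7 of 11 mice. Fbn1, the microfibril protein fibrillin-1, ran from 44.9 through 114 to 175 CPM in fibroblasts and averaged 79.8 ± 17.4 CPM in arterial EC, with 7.84 CPM or less elsewhere. Ltbp1 and Ltbp4 bind latent TGFβ to the matrix and were highest in different cells. Ltbp1 lay at 460 through 651 to 790.5 CPM in SMC, and Ltbp4 at 911 through 948 to 1194 CPM in arterial EC. Neither range was reached by the next class, fenestrated EC in both cases, at 181 ± 98.1 CPM of Ltbp1 and 520.1 ± 83.2 CPM of Ltbp4. Smooth muscle held 17.3 CPM of Ltbp4 and capillary EC 2.00 CPM of Ltbp1. An Ltbp1 UMI was found in 94.5% of SMC (median depth 8033 UMIs) and 0.730% of capillary EC (4465 UMIs), and after thinning to 2000 UMIs in 66.8% and 0.289%.

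Emilin1, an elastin-associated glycoprotein, ranged from 146 through 220.2 to 409 CPM in fibroblasts, above SMC at 46.6 ± 7.48. Mfge8, the source of the medin peptide of ageing arteries, was shared by mural cells. It stood at 688, 888 and 1018 CPM in the lowest, median and highest pericyte library and at 768, 812 and 1028 CPM in SMC. The mural ranges of Mfge8 overlapped (pericytes higher in 6 of 10 mice), and fenestrated EC were the endothelial class with most, at 449.9 ± 81.2 CPM. Sod3, the extracellular superoxide dismutase that binds matrix heparan sulphate, ran from 288 through 346 to 511 CPM in pericytes, above fibroblasts at 83.7 ± 40.2. Transcripts of the fibrillar collagens were highest in fibroblasts, where Col3a1 ran from 74.8 through 331 to 730 CPM and Col5a2 from 105 through 144.5 to 218.5 CPM. Beyond fibroblasts, Col3a1 was at 54.0 ± 21.5 CPM in pericytes, and Col5a2 was more widely shared, at 90.6 ± 29.7 CPM in arterial EC, 79.6 ± 35.7 in pericytes and 67.1 ± 27.0 in venous EC.

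Fibroblast levels rest on few cells. Between 5 and 18 fibroblasts per mouse were used in 10 mice, and R182C-TgN3 6 months replicate 1, with 6 cells and 34255 UMIs, held the highest fibroblast level of 15 of the 34 genes with UMIs there (Agrn, Bgn, Col3a1, Col4a1, Col4a2, Col4a5, Col4a6, Eln, Fbn1, Lama1, Lama3, Lama4, Lamb2, Nid1 and Nid2). Without that mouse the fibroblast means were 256.6 ± 153.6 CPM of Lama1, 85.22 ± 87.33 of Col4a6, 427.2 ± 163.8 of Nid1 and 66.77 ± 40.15 of Nid2 (n = 9). The highest mean of Col4a6 was then in SMC (118 ± 33.2 CPM) and that of Nid1 in pericytes (456 ± 85.3 CPM). Summed pericyte markers in those 6 cells were at 876 CPM against 120 to 216 in the fibroblasts of the other 4 CADASIL mice used and 232 to 364 in those of control mice, with their part in these levels not tested.

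Class differences were tested with edgeR in a single fit over the 7 classes with mouse as a block, adjusting over all 12009 genes that passed the low-count filter. All comparisons with capillary EC share those capillary libraries, so they are given side by side and not set against each other. The filter left 34 of the 35 genes, without Lamb3. Log2 values come from the edgeR fit, which scales libraries by TMM factors, so they can differ from ratios of the CPM above, and the median log2 difference of all tested genes was -0.12 for pericytes, -0.20 for fibroblasts against capillary EC and -0.11 for fibroblasts against SMC.

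Arterial EC differed from capillary EC in genes of several matrix groups. Fbn1, Col18a1, Ltbp1, Col5a2, Bgn and Eln rose, as did the laminin chains Lama3 and Lama5, while Nid2, Sparcl1, Sparc and Lama4 fell. In edgeR 24 of 34 genes passed the adjusted threshold of 0.05, 17 higher and 7 lower in arterial EC, beside 50.0% of all 12009 genes. The median log2 difference was 0.48 for the 34 genes and -0.03 for all tested genes. Fbn1 was higher by 7.27 ± 0.21 (log2, SE) with an edgeR adjusted p of 6.56e-44, Lama3 by 2.72 ± 0.08 (adjusted p 7.25e-44) and Eln by 3.83 ± 0.13, each in 11 of 11 mice. Col4a1 did not pass, at 0.16 ± 0.09, although its CPM was higher in arterial EC in 11 of 11 mice. Summed SMC markers (8 of 8 with UMIs, Mylk the most abundant at 177 CPM) were at 220.4 CPM in arterial EC against 44.3 in capillary EC, and their part in the differences was not tested.

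Venous EC carried more Lama1, Col5a2 and Eln than capillary EC and less Col4a1, Hspg2 and Lama5. Lama1 rose by 5.38 ± 0.21 (edgeR adjusted p 1.19e-32), Col5a2 by 3.85 ± 0.16 and Eln by 2.50 ± 0.13. Col4a1 fell by 0.56 ± 0.09, Hspg2 fell by 1.12 ± 0.08 and Lama5 fell by 1.18 ± 0.07 on the log2 scale. Of the 34 genes, 27 passed in edgeR (14 higher, 13 lower) beside 50.5% of all genes, with medians of 0.10 and -0.01. Summed SMC markers (8 of 8 with UMIs, Mylk the most abundant at 76.0 CPM) were at 141 CPM in venous EC and 44.3 in capillary EC, pericyte markers (8 of 8, Vtn at 21.3 CPM) at 41.98 and 15.3, and fibroblast markers at 4.65 and 4.31 CPM, with their part in these differences not tested. R182C-TgN3 6 months replicate 1 stood apart in venous EC, at 516 CPM of SMC and 171 CPM of pericyte markers. Without it the calls of Lama2 (also lost with the limit on other classes halved, at -0.26), Bgn and Ltbp1 were lost, and those of the 6 genes named here held.

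Fenestrated EC had more than capillary EC of 23 of the 34 genes tested. Col15a1 rose by 8.61 ± 0.19, Ltbp1 by 6.48 ± 0.19, Lamb1 by 5.38 ± 0.20, Col4a3 by 4.14 ± 0.16, Lama3 by 3.69 ± 0.08, Hspg2 by 2.96 ± 0.07 and Col4a1 by 1.81 ± 0.09 (edgeR adjusted p 5.65e-30). Lower there were Fn1 (-3.94 ± 0.16), Lamc3 (-3.17) and Agrn (-1.21). Sparc did not pass, at 0.05. In edgeR 27 of 34 passed, 23 higher and 4 lower, beside 56.2% of all genes (3372 higher, 3374 lower), and the medians were 1.48 and -0.02. Of the 23, Lama2 was higher in 6 and Sod3 in 7 of 11 mice. With the limit on other classes halved the calls of Lama2 (1.92, then 0.23), Sod3 (2.70, then 1.29) and Lama5 (0.18, then 0.17) were lost. Summed pericyte markers (8 of 8 with UMIs, Art3 the most abundant at 17.2 CPM) were at 34.6 CPM in fenestrated EC, from 10.2 to 72.5 over the mice, against 15.3 in capillary EC, SMC markers at 34.98 and 44.3 and fibroblast markers at 4.49 and 4.31 CPM, and their part in the differences was not tested.

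Smooth muscle exceeded capillary EC most in Col4a5, at 9.27 ± 0.21 (edgeR adjusted p 2.36e-52), in Ltbp1, at 8.61 ± 0.18, and in Col4a6, at 8.39 ± 0.21. Mfge8 rose by 4.60 ± 0.08, Lama5 by 1.59 ± 0.06 (adjusted p 7.4e-38), Sparcl1 by 1.99 ± 0.11 and Col4a1 by 0.46 ± 0.09 (adjusted p 5.12e-06). Lower in SMC were Fn1 (-4.31 ± 0.17), Ltbp4 (-4.27 ± 0.11), Nid2 (-3.92) and Lama4 (-1.19). Counts were 31 of 34 in edgeR (23 higher, 8 lower) beside 76.3% of all genes, with medians of 1.71 and -0.07. Summed pericyte markers were at 720.5 CPM in SMC against 15.3 in capillary EC, and fibroblast markers at 103 against 4.31. Their part in the differences was not tested.

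Pericytes exceeded capillary EC in Lama2 by 10.12 ± 0.24 (edgeR adjusted p 2.72e-50), in Sod3 by 9.74 ± 0.24, in Col4a3 by 5.29 ± 0.20, in Lamc3 by 4.45 ± 0.15 and in Lamc1 by 3.24 ± 0.11. Col4a1 rose by 0.66 ± 0.11 (adjusted p 8.42e-08), and Col4a2 did not pass, at 0.22 ± 0.10 (adjusted p 0.0508). Fn1 fell by 5.19 ± 0.28, and Lama3, Ltbp4 and Lama5 also fell. edgeR called 28 of 34 genes (21 higher, 7 lower) beside 55.5% of all genes, with medians of 2.28 and -0.12. Endothelial markers (10 of 10 with UMIs) summed to between 675 and 1881 CPM in the pericyte libraries, and their part in the endothelial genes read there was not tested. SMC markers were at 1122 CPM in pericytes against 44.3 in capillary EC, and fibroblast markers at 293.8 against 4.31. The part of these markers in the differences was not tested.

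Fibroblasts exceeded capillary EC in Col3a1 by 10.48 ± 0.37, in Lama2 by 10.26 ± 0.24 (edgeR adjusted p 8.91e-50), in Lamb1 by 8.20 ± 0.22 and in Lama1 by 7.65 ± 0.27 (adjusted p 3.42e-35). Bgn, Emilin1, Col15a1, Fbn1 and Col18a1 also rose. Lower in fibroblasts were Fn1 (-4.41), Agrn (-3.16), Sparcl1 (-2.92) and Lama5, of which the fibroblast libraries held 1 UMI in all, too few to give the size of its fold. In edgeR 30 of 34 passed (20 higher, 10 lower) beside 53.4% of all genes, with medians of 1.94 and -0.20. Summed SMC markers (7 of 8 with UMIs, Cnn1 at 0, Mylk the most abundant at 205 CPM) were at 384.5 CPM in fibroblasts against 44.3 in capillary EC, pericyte markers (6 of 8, Atp13a5 and Higd1b at 0, Abcc9 at 143 CPM) at 308 against 15.3, and endothelial markers (10 of 10, Emcn at 487 CPM) at 715.5 against 17470 CPM, with their part in the differences not tested.

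The mural classes were then compared directly. SMC exceeded pericytes in Eln by 5.40 ± 0.39, in Lama5 by 4.23 ± 0.20 (edgeR adjusted p 7.63e-31), in Ltbp1 by 3.80 ± 0.22 and in Col4a5 by 1.28 ± 0.20, while pericytes exceeded SMC in Lama2 (-4.53 ± 0.19, adjusted p 1.46e-33), Col4a3 (-3.21 ± 0.21) and Lamc1 (-1.59). So the neighbouring mural cells differed in α chains of both networks, Lama5 with Col4a5 in SMC and Lama2 with Col4a3 in pericytes, and Col4a1 did not pass, at -0.21 ± 0.11, although its CPM was lower in SMC in 10 of 10 mice. In edgeR 26 of 34 passed (12 higher, 14 lower) beside 47.6% of all genes, with medians of -0.06 and 0.02. Against SMC, fibroblasts were higher in Lamb1 by 8.34 ± 0.30, in Lama2 by 4.67 ± 0.20 and in Lama1 (edgeR adjusted p 3.28e-29), and lower in Lama5 (edgeR adjusted p 2.59e-30), Sparcl1, Ltbp1, Mfge8 and Eln. The SMC libraries held 2 Lama1 UMIs in all and the fibroblast libraries 1 Lama5 UMI, so no size of fold is given for these genes. There 28 of 34 passed in edgeR (16 higher, 12 lower) beside 48.9% of all genes, with medians of 0.27 and -0.11.

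In how many mice a gene went the fitted way differed by comparison. All mice showed the direction for 20 of 24 genes in arterial, 15 of 27 in venous, 22 of 27 in fenestrated EC, 28 of 31 in SMC, 23 of 28 in pericytes and 19 of 30 in fibroblasts against capillary EC. Between SMC and pericytes this held for 21 of 26 genes, and between fibroblasts and SMC for 19 of 28. The same was not counted for all called genes, so these counts are not results about the list. Some calls went with the TMM-scaled fit and not with most per-mouse CPM values. Against pericytes, edgeR called Col4a2 (0.36) and Mfge8 (0.45) higher in SMC, while their CPM was higher in SMC in 3 and 4 of 10 mice, and the Col4a2 call was lost with DESeq2 size factors (0.16). Against capillary EC, Sparc was called lower in pericytes (-0.28) with 5 of 10 mice on each side and lost the call with DESeq2 size factors (-0.08) and with no limit on markers of other classes (0.04). Fbn1 was called higher in pericytes (2.78) with 3 of 10 mice higher, and did not pass with the limit on other classes halved (-2.21), with up to 20% mitochondrial UMIs, or without WT-TgN3 9 months replicate 1 (1.13), while without R182C-TgN3 9 months replicate 2 (2.78) or WT-TgN3 6 months replicate 1 (2.73) the call was lost with the difference about as large.

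Genes that modify and cross-link collagen (19 listed, all tested) were counted in the same fits. Against capillary EC edgeR called 12 of 19 in arterial EC (beside 50.0% of all genes), 12 in venous EC (50.5%), 13 in fenestrated EC (56.2%), 18 in SMC (76.3%), 15 in pericytes (55.5%) and 15 in fibroblasts (53.4%), with 13 between SMC and pericytes (47.6%) and 13 between fibroblasts and SMC (48.9%). Lox, the lysyl oxidase that starts cross-links, and Pcolce, an enhancer of procollagen cleavage, were among the 3 largest increases in several comparisons. In SMC against capillary EC edgeR called 11 higher, led by Lox at 8.06 ± 0.32, Pcolce at 7.58 ± 0.22 and the procollagen protease Adamts2 at 5.10 ± 0.31, and 7 lower, among them Crtap (-0.88), Ppib (-0.67) and Colgalt1 (-0.58). Pericytes had 12 higher, led by Pcolce (7.55 ± 0.35), Lox (4.32) and the collagen IV cross-linking peroxidase Pxdn (3.33), and 3 lower (P4ha2 -1.86, Crtap -0.67, Colgalt1 -0.53). Fibroblasts had 13 higher, led by Pcolce (9.34 ± 0.27), Lox (8.42) and Loxl1 (8.38), and 2 lower (Plod1 -0.89, Colgalt1 -0.55).

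Within endothelium, the same list of collagen-modifying genes showed 8 higher and 4 lower in arterial against capillary EC. Lox (6.27 ± 0.34), P4ha2 (1.15) and Bmp1 (0.91) led, and Loxl1 (-1.18), Plod1 (-0.38) and Colgalt1 (-0.33) were lower. Venous EC had 7 higher (Lox 2.50, Pcolce 1.77, Pxdn 1.12) and 5 lower (Bmp1 -1.01, P4ha2 -0.69, Plod1 -0.53). Fenestrated EC had 9 higher, led by Pcolce (3.75 ± 0.41), Pxdn (3.51 ± 0.17) and Bmp1 (2.79), and 4 lower (Crtap -0.40, Mia3 -0.31, Plod2 -0.29). Between SMC and pericytes 5 were higher (Adamts2 7.64, Lox 3.74, P4ha2 3.49) and 8 lower in SMC (Pxdn -1.10, P4ha1 -1.02, Ppib -0.93). Fibroblasts against SMC had 11 higher (Loxl1 3.79, Loxl2 2.77, Pxdn 2.69) and 2 lower (P4ha2 -0.94, Plod1 -0.62).

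Matrix receptors (21 listed, 20 tested) were counted in the same way. In the same order of comparisons and beside the same shares of all genes, edgeR called 15, 14, 13, 18, 15, 16, 12 and 17 of 20. SMC had 15 higher than capillary EC in edgeR, led by the integrin chains Itga8 (10.13 ± 0.29) and Itga7 (9.15 ± 0.16) and the syndecan Sdc2 (9.00 ± 0.16), and 3 lower, the laminin-binding integrin chains Itga6 (-7.08 ± 0.16) and Itgb4 (-2.73) and the fibronectin-binding Itga5 (-1.09). Pericytes had 11 higher (Sdc2 9.09, Itga7 8.64, Itga8 6.04) and 4 lower, led by Itgb4 (-6.39), Itga6 (-5.22) and Itga3 (-3.94). Fibroblasts had 13 higher (Itga8 12.00, Itgb8 8.33, Sdc2 7.83) and 3 lower (Itga6 -7.08, the laminin α5 receptor Bcam -3.69, Itga1 -2.07). Arterial EC had 12 higher, led by Sdc1 (4.21), the collagen receptor Ddr1 (3.25) and Itgb4 (3.05 ± 0.14), and 3 lower (Itga6 -0.88, Itgav -0.52, Cd44 -0.30).

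Venous EC had 10 receptors higher (Sdc2 2.69, Ddr2 2.69, Sdc1 2.32) and 4 lower (Ddr1 -1.70, Itga6 -0.92, Cd44 -0.70). Fenestrated EC had 11 higher (Itga8 5.35, Itgb3 3.61, Itgb5 2.74) and 2 lower (Ddr1 -1.49, Itga6 -0.82). SMC against pericytes had 8 receptors higher (Itga3 5.16, Itga8 4.09, Sdc4 3.44) and 4 lower (Itga6 -1.86, Itga1 -1.23, Itgav -0.53). Against SMC, fibroblasts had 8 higher (Itgb8 4.75, Itgb4 3.73, Sdc1 3.51) and 9 lower, led by Itga7 (-6.91), Bcam (-5.09) and Itga1 (-1.94).

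Other vessel wall matrix genes (38 listed, 31 tested) were counted last. In the same order edgeR called 21, 20, 26, 24, 18, 28, 15 and 28 of 31. The shares were near those of all genes between SMC and pericytes (48.4% beside 47.6%), in SMC (77.4% beside 76.3%) and in pericytes (58.1% beside 55.5%), so those counts are not results about the list. Fibroblasts had 25 higher than capillary EC in edgeR, led by Efemp1 (11.56), the collagen VI chain Col6a1 (10.60) and the microfibril protein Mfap4 (10.46), and 3 lower (Mmrn2 -4.50, Egflam -2.44, Tinagl1 -2.06). Arterial EC had 20 higher, led by the elastic fibre protein Fbln5 (7.65), the calcification inhibitor Mgp (7.30) and the integrin α8 ligand Npnt (5.28), and 1 lower (Egflam -3.70). SMC had 22 higher (the small proteoglycans Aspn 9.15 and Ogn 8.97, and Thbs1 7.47) and 2 lower, the endothelial Mmrn2 (-5.40) and Fbln2 (-3.04). Pericytes had 15 higher (Aspn 8.20, Col6a2 7.80, Ogn 7.33) and 3 lower (Mmrn2 -6.15, Tinagl1 -2.29, Timp3 -1.27).

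Venous EC had 14 of these wall genes higher (Mgp 3.90, Fbln1 3.84, Fbln5 3.82) and 6 lower (Col14a1 -2.45, Htra1 -2.34, Timp3 -0.89). Fenestrated EC had 20 higher (Col12a1 6.35, Mfap2 5.77, Thbs1 5.17) and 6 lower (Col14a1 -2.49, Egflam -2.19, Htra1 -1.79). SMC exceeded pericytes in 8 (Npnt 7.25, Thbs1 7.15, Tinagl1 4.18) and were lower in 7, led by Fbln1 (-9.29), Tnxb (-6.66) and Mfap2 (-3.62). That share (48.4%) was near the 47.6% of all genes, so it is not a result about the list. Fibroblasts exceeded SMC in 23 (Mfap4 11.71, Efemp1 11.22, Fbln1 8.58) and were lower in 5, led by Aspn (-7.06), Npnt (-4.41) and Tinagl1 (-3.94).

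The 6 collagen IV genes lie in 3 head-to-head pairs that are read in opposite directions, and each pair had a similar profile over the classes. On GRCm38, Col4a1 (ENSMUSG00000031502, chromosome 8, 11198423 to 11312826, minus strand) and Col4a2 (ENSMUSG00000031503, 11312805 to 11449287, plus strand) overlap at their 5′ ends by 22 bases. Col4a3 starts 71 bases from Col4a4 on chromosome 1, and Col4a5 starts 1308 bases from Col4a6 on chromosome X. Across the 7 classes, log2 levels correlated with r = 0.962 for Col4a1 with Col4a2, 0.976 for Col4a3 with Col4a4 and 0.996 for Col4a5 with Col4a6, given as a description over 7 class means from shared libraries. Between pairs r was 0.794 for Col4a1 with Col4a3, -0.095 for Col4a1 with Col4a5 and 0.411 for Col4a3 with Col4a5. Laminin chains encoded apart gave r = 0.883 for Lamc1 with Lama2, 0.864 for Lama2 with Lamc3 and -0.243 for Lamb1 with Lamb2.

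Start regions of the pair most shared among classes and of the pair nearly empty in endothelium are printed because the members of each had similar profiles over the classes. Sequences are from RefSeq on GRCm38.p6, 250 bases before to 50 after each gene's start, 5′ to 3′ on the gene's strand, and 23 of the 35 genes had at least 1 window (29 in all). Capitals mark every match, on either strand, to the CCAAT box, the GC box GGGCGG, the TATA box letters TATAAA and TGGGAA, the core letters bound by the Notch effector RBPJ. The serum response element known as the CArG box was searched as well.
Col4a1 (chr8:11312777-11313076, minus strand): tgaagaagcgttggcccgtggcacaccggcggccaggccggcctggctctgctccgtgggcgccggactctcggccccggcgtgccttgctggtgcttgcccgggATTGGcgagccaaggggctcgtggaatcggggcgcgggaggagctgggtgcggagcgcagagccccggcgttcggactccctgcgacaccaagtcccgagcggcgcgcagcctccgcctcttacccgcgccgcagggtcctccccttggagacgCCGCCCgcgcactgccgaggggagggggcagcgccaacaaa
Col4a2 (chr8:11312555-11312854, plus strand): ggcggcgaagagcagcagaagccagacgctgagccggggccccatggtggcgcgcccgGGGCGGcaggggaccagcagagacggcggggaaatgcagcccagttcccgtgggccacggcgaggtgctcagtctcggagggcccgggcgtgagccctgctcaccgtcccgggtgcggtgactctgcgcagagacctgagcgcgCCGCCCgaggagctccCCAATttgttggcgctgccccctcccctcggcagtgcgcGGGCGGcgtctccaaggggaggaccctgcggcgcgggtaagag
Col4a5 (chrX:141475169-141475468, plus strand): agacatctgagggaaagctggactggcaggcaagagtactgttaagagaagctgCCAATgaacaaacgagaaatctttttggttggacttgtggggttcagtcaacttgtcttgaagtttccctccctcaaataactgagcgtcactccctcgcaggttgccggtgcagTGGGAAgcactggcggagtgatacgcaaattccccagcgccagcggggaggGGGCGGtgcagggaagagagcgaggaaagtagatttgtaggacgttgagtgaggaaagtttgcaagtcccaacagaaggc
Col4a6 (chrX:141474027-141474326, minus strand): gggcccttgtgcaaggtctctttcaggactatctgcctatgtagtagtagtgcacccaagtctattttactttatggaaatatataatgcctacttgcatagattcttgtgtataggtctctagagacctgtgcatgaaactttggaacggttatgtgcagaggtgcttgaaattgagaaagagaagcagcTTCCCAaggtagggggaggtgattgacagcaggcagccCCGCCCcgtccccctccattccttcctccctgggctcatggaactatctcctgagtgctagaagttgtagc
The Col4a1 and Col4a2 windows overlap by 78 bases, and those of Col4a5 and Col4a6 are 842 bases apart. GC content was 74.0% and 73.7% in the first pair and 52.7% and 48.3% in the second. CCAAT was found at 1 place in Col4a1, Col4a2 and Col4a5 and not in Col4a6, GGGCGG at 3 places in Col4a2 and at 1 in each of the others, and the Col4a1 place (chr8:11312812-11312817) lies in the overlap and is also 1 of the 3 of Col4a2. TGGGAA was found at 1 place in Col4a5 and Col4a6. No window of the 4 held TATAAA or a CArG box. Of 32817 windows of this length, 37.4% held CCAAT, 35.6% GGGCGG, 13.6% TATAAA, 25.6% TGGGAA and 1.63% a CArG box. Of the 29 windows of the 23 matched genes, where a gene can have several, 9, 18, 1, 11 and 1 held them in that order. A match describes letters only.

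The ratio of Col4a1 to Col4a2 UMIs, chains that enter the trimer together, was narrow within endothelium and SMC. It was 1.46 ± 0.0867 in capillary EC (range 1.34 to 1.65), 1.40 ± 0.0905 in arterial, 1.59 ± 0.128 in venous and 1.45 ± 0.0971 in fenestrated EC, 1.35 ± 0.105 in SMC (1.16 to 1.52), 1.99 ± 0.505 in pericytes (1.26 to 2.94) and 1.93 ± 0.810 in fibroblasts. In SMC it was below capillary EC in 9 of 11 mice, with a mean log2 difference of -0.12 (SD 0.12, two-sided exact paired permutation p 0.00781 over 2048 sign changes). The other classes were set against capillary EC without a test. Arterial EC were lower in 9 of 11 mice (mean log2 difference -0.07) and fenestrated EC in 6 of 11 (-0.02), while venous EC were higher in 10 of 11 (0.12), pericytes in 8 of 10 (0.41) and fibroblasts in 7 of 10 (0.27). Between genotypes it was 1.48 in CADASIL and 1.43 in control mice in capillary EC (log2 difference 0.05, exact permutation p 0.370), and 1.41 and 1.39 in arterial EC (0.02, exact p 0.682). SMC had 1.37 and 1.32 (0.06, exact p 0.422), and pericytes 2.18 and 1.72 (0.36, exact p 0.133, n = 6 and 4). Within batches, leaving out the batch with CADASIL mice alone, the differences were 0.06, 0.04, 0.11 and 0.34, with exact permutation p of 0.444, 0.667, 0.417 and 0.278. None of the 4 genotype differences passed, and in pericytes the mice ranged widely in both groups.

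Genotype was the comparison the study was built for. No matrix gene passed the test between CADASIL and control mice in any class, and for the abundant genes given next the groups overlapped. Summed over the 35 genes, capillary EC held 4400 CPM in CADASIL and 4503 in control mice, SMC 7862 ± 509 and 8085 ± 790, and pericytes 9243 ± 438 and 9241 ± 785. In SMC, a class that reads the transgene, Col4a1 was lowest at 376, had a median of 457 and was highest at 556 CPM in the 6 CADASIL mice, and stood at 588, 416 and 572 CPM in the 6-month and 373 and 387 CPM in the 9-month control mice. Control mice spanned the whole CADASIL range. Lama5 ran from 109.5 through 135 to 145 CPM in CADASIL SMC and stood at 153, 134, 132, 145 and 120.3 CPM in control SMC. Ltbp1 ran from 460 through 671 to 790.5 CPM, with control values of 627, 604, 651, 695 and 669.6 CPM inside that range. The fitted log2 differences were 0.00 ± 0.14 for Col4a1, -0.03 ± 0.11 for Lama5 and 0.02 ± 0.12 for Ltbp1.

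In pericytes Lama2 ran from 1236 through 1353 to 1700 CPM in CADASIL mice, and control mice stood at 1330, 1457, 1686 and 1403 CPM. Col4a3 ran from 99.7 through 197 to 270 CPM, and control values were 129, 152, 187 and 152 CPM. Lamc1 ran from 509 through 666 to 716 CPM, and control values were 466.5, 683, 881 and 609 CPM. Groups overlapped for these 3 genes, with log2 differences of -0.07 ± 0.13, 0.32 ± 0.23 and -0.05 ± 0.16. In capillary EC Fn1 ran from 679 through 797.5 to 901 CPM in CADASIL mice and stood at 876, 657, 948, 707 and 757.5 CPM in control mice, with the control mice on both sides of the CADASIL values (0.05 ± 0.10). Arterial EC held 919 through 937 to 1194 CPM of Ltbp4 in CADASIL mice and 1154, 1080, 911, 1140 and 921 CPM in control mice. Fenestrated EC held 570 through 675 to 831 CPM of Hspg2 in CADASIL mice and 690, 691.5, 654, 785 and 495 CPM in control mice. Both pairs overlapped over most of their range.

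By edgeR, 0 of the tested genes passed an adjusted p of 0.05 between genotypes in any class. That is 0 of 26 in capillary EC (beside 0.00% of all 11825 genes), 0 of 23 in arterial EC (0.00%), 0 of 20 in venous EC (0.00996%), 0 of 25 in fenestrated EC (0.00%), 0 of 28 in SMC (0.0117%), 0 of 19 in pericytes (0.0377%) and 0 of 18 in fibroblasts (0.00%). At an unadjusted p under 0.05 edgeR gave 1, 0, 0, 1, 1, 0 and 1 genes in that order, beside 2.10%, 1.40%, 3.15%, 3.27%, 2.72%, 4.79% and 2.82% of all genes, and DESeq2 called 0 in each class and gave 2, 0, 0, 0, 1, 0 and 0 at the unadjusted threshold, beside 1.63%, 0.866%, 1.93%, 1.75%, 1.67%, 2.60% and 2.82% of all genes. Median log2 differences of the tested matrix genes were 0.00, -0.01, 0.03, 0.03, -0.03, -0.05 and 0.01, beside medians of 0.00, 0.01, 0.01, 0.01, 0.00, -0.01 and 0.01 for all genes. Outside the matrix list, edgeR called human NOTCH3 in SMC (2.52 ± 0.28, edgeR adjusted p 5.79e-05) and pericytes (1.33 ± 0.19, edgeR adjusted p 0.00034). NOTCH3 means were 236 and 35.7 CPM in SMC and 1230 and 495 CPM in pericytes of CADASIL and control mice. The other gene edgeR called was Depp1 in venous EC (1.18 ± 0.17, edgeR adjusted p 0.0268), chosen for mention after its value was seen. Of all genes, DESeq2 called 1 in arterial EC, where edgeR called 0, and the replicate block called 7 in pericytes. In venous EC no gene was called with batch or sex in the fit, with the replicate block, or in most fits that left out a single mouse (0 to 1 genes). No gene of the collagen modification, receptor or other wall matrix lists was called between genotypes in any class by edgeR.

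**Figure D3:**
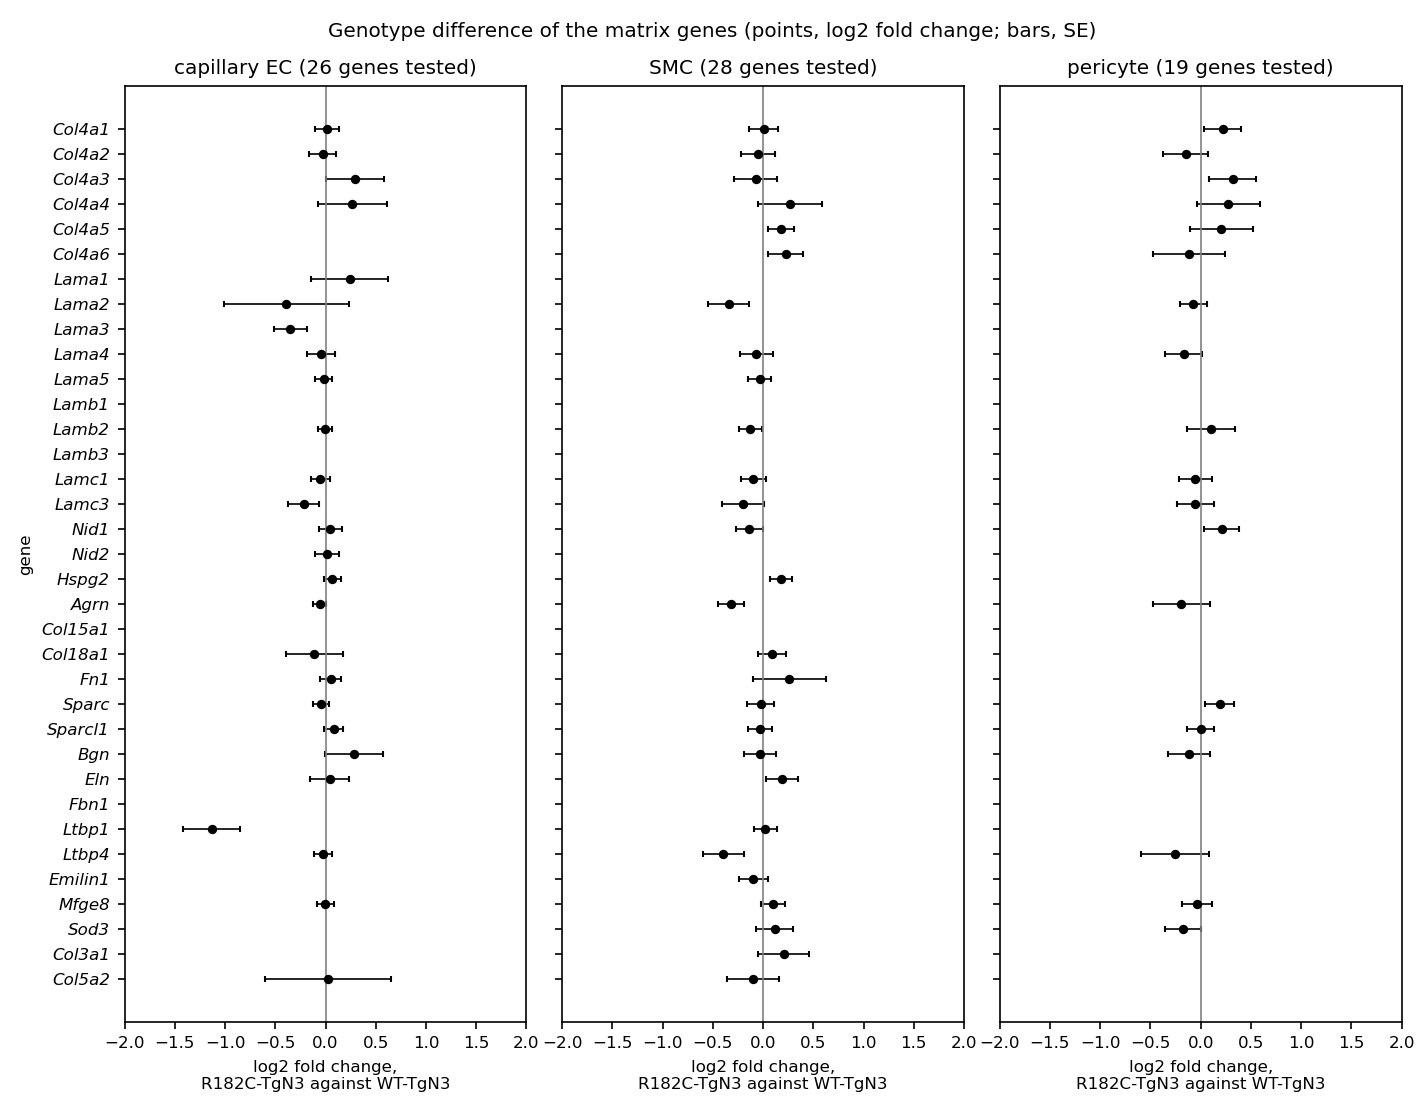
Log2 difference between R182C-TgN3 and WT-TgN3 mice (points, bars of 1 SE, edgeR) for the tested matrix genes in capillary EC (26 genes), SMC (28 genes) and pericytes (19 genes). In SMC the points lie between -0.40 (Ltbp4) and 0.27 (Col4a4), and in capillary EC Ltbp1 stands apart at -1.13.

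The 4 genes under the unadjusted threshold failed the correction. Ltbp1 in capillary EC was low throughout, from 0.526 through 1.25 to 2.04 CPM in CADASIL mice (6 to 26 UMIs per mouse) and 2.47, 2.28, 3.48, 2.14 and 3.87 CPM in control mice. These groups did not overlap, and the log2 difference was -1.13 ± 0.29 (edgeR adjusted p 1, and -0.98 ± 0.27 with batch in the fit). Summed SMC markers (8 of 8 with UMIs, Mylk the most abundant at 17.6 CPM) were at 38.5 ± 20.8 CPM in capillary EC of CADASIL mice and 51.4 ± 29.98 CPM in those of control mice, and their part in this difference was not tested. Without the limit on markers of other classes the Ltbp1 difference was -0.53. Agrn in SMC ran from 33.4 through 44.9 to 54.2 CPM in CADASIL mice and stood at 57.9, 56.8, 42.5, 64.1 and 58.9 CPM in control mice. Of the control mice, 4 lay above every CADASIL mouse, and the log2 difference was -0.32 ± 0.13 (edgeR adjusted p 1, and -0.33 with batch in the fit).

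Bgn in fenestrated EC ran from 12.7 through 21.9 to 45.6 CPM in CADASIL mice and stood at 35.3, 20.4, 20.1, 41.0 and 207 CPM in control mice. The highest value came from WT-TgN3 9 months replicate 2, and the log2 difference of -1.44 ± 0.50 (edgeR adjusted p 0.999) was -0.20 ± 0.26 without that mouse. Fenestrated EC of the same mouse also had 454 CPM of Ltbp1 and the lowest Lama3 level, 185 CPM. Their summed endothelial markers (10 of 10 with UMIs, lowest of the 11 mice) were at 11780 CPM against 14250 to 16670, and their pericyte markers (highest of the 11 mice) at 72.5 CPM against 10.2 to 59.7, with their part in these values not tested. Col4a5 in fibroblasts was at 0, 31.1, 380, 85.0 and 37.2 CPM in the 5 CADASIL mice used (0 to 13 UMIs) and at 27.3, 306, 200, 152 and 374 CPM in control mice. These groups overlapped, at -1.61 ± 0.66 (edgeR adjusted p 0.999), but with no low-count filter Col4a5 passed, at an edgeR adjusted p of 0.0159. Of all genes, 0 to 36 were called over the 12 other settings of this fit. Summed pericyte markers (6 of 8 with UMIs) in these fibroblasts were at 120, 138, 876, 216 and 197 CPM in CADASIL mice and 232 to 364 in control mice, and SMC markers at 254 to 489 and 204 to 674 CPM, with their part in the difference not tested.

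Age was compared between 9 and 6 months in capillary EC and SMC with genotype in the fit, but each batch held a single age, so age and batch cannot be told apart. In capillary EC 21 of 26 tested genes had a negative fitted difference, lower in older mice but short of the threshold, with a median log2 difference of -0.08 beside -0.01 for all genes. Col5a2 was at 1.85, 1.03, 4.82, 1.81 and 1.58 CPM at 9 months and at 2.67 to 12.9 CPM at 6 months, with overlapping groups. Lama2 was at 0.348, 0.603, 0.964, 0.576 and 0.395 CPM at 9 months and at 0.707 to 4.47 CPM at 6 months. The edgeR differences were -1.83 ± 0.45 (adjusted p 0.0614) for Col5a2, -1.70 ± 0.47 (adjusted p 0.104) for Lama2 and -0.30 ± 0.10 (adjusted p 0.145) for Col4a1. So 0 of 26 genes passed in edgeR, beside 1.43% of all genes, with 5 (19.2%) at an unadjusted p under 0.05 beside 14.9% of all genes. DESeq2 called 2 of them, Col5a2 (adjusted p 0.00132) and Lama2 (adjusted p 0.0282), beside 440 of all 13663 genes. At the unadjusted threshold DESeq2 gave 4 (15.4%) beside 13.4% of all genes. Other settings also gave calls in edgeR: both genes with no low-count filter, Col5a2 with no limit on markers of other classes, 2 genes without R182C-TgN3 9 months replicate 3 or without WT-TgN3 6 months replicate 2, and 1 without R182C-TgN3 6 months replicate 3. Of all genes, 154 to 547 were called over the 8 other settings, DESeq2 included. The fits that left out a mouse called 31 to 400 of all genes, against 195 in the main edgeR fit.

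Col5a2 and Lama2 were low in capillary EC, and Lama2 was high in fibroblasts and pericytes. Col5a2 was called higher than in capillary EC in fibroblasts (log2 5.02), arterial EC (4.32), pericytes (3.92) and venous EC (3.85). Summed pericyte markers in capillary EC (8 of 8 with UMIs, Vtn the most abundant at 5.54 CPM) were at 6.43, 13.3, 25.6, 6.09 and 7.59 CPM at 9 months and at 20.6, 21.4, 16.9, 12.8, 11.3 and 26.2 CPM at 6 months. Fibroblast markers (8 of 8, Slc22a6 at 2.28 CPM) were at 2.38, 5.25, 3.24, 1.65 and 4.11 CPM at 9 months and at 7.48, 7.24, 3.06, 4.26, 2.28 and 6.46 CPM at 6 months. The ages overlapped in both lists, and the part of these markers in the difference was not tested. Outside the matrix genes, the wall lists had 2 calls with age in capillary EC and none in SMC. They were Timp3, an inhibitor of matrix proteases (0.47 ± 0.10, edgeR adjusted p 0.0320), and the hyaluronan receptor Cd44 (-1.21 ± 0.28, edgeR adjusted p 0.0486). In capillary EC these were 1 of 17 other wall genes and 1 of 16 receptors tested, beside 1.43% of all genes. None of the 15 collagen-modifying genes tested passed there.

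In SMC Col4a1 and Col4a2 were lower at 9 months by values short of the threshold, at -0.32 ± 0.13 (edgeR adjusted p 0.568) and -0.38 ± 0.15 (edgeR adjusted p 0.563). Col4a4 was higher at 9 months, also short of the threshold, at 0.69 ± 0.32 (edgeR adjusted p 0.651). The count was 0 of 28 in edgeR, beside 0.190% of all genes, with 3 at an unadjusted p under 0.05 (beside 661 of all 8932 genes), and DESeq2 called 0 with 3 at that threshold (beside 5.56%). Whether the genotype difference itself varied with age was tested by an interaction term. In capillary EC 0 of 30 genes passed in edgeR (0.00% of all genes), with 3 under the unadjusted threshold beside 3.34% of all genes, Col4a3 (1.21 ± 0.50), Col4a4 (1.38 ± 0.61) and Emilin1 (3.56 ± 1.55). In SMC 0 of 28 passed (0.00% of all genes), with 3 under the unadjusted threshold (10.7% beside 2.75% of all genes), and DESeq2 was not run for this term. The smallest p was that of Eln, whose SMC levels were 264, 288 and 256 CPM in 9-month and 191, 193 and 179 CPM in 6-month CADASIL mice, against 205 and 163 CPM in 9-month and 203.5, 165 and 324 CPM in 6-month control mice. Older CADASIL mice lay above younger ones without overlap, and control mice overlapped, with an interaction of 0.83 ± 0.28 (edgeR adjusted p 1).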

How the data were processed

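Single-cell 3′ RNA counts were analysed from 11 mouse brain vessel libraries. The deposited count matrices hold raw UMI counts that the authors made with Cell Ranger 7.0.0 on mm10 with human NOTCH3 added. Cells needed 500 genes and at most 10% mitochondrial UMIs. Barcodes shared between libraries were removed, a choice made after seeing the data. A class needed 3 of its own markers, 50% of the core cells' median marker score, and other classes at most 50% (other EC subtypes 67%) relative to its own; no doublet caller was run, and the limits on other classes were the step that left out barcodes with markers of several classes. Just inside and outside the limit on other classes lay 83 and 81 SMC, 16 and 21 pericytes and 4 and 1 fibroblasts. UMIs were summed per mouse and class over 20 or more cells. No mouse had 20 fibroblasts, so 5 were required after seeing this (10 mice), and a control mouse with 18 pericytes was not used (10 mice). Sums were tested with edgeR 4.0.16 (TMM, filterByExpr, quasi-likelihood, Benjamini-Hochberg over all genes tested; SE is the log2 difference over the root of F), with DESeq2 1.42.0 beside it for genotype and age, in R 4.3.3, and with two-sided exact permutations in Python 3.11.15 (scipy 1.17.1). Genotype fits leave out ribosomal, mitochondrial, Gm and Rik genes. Values per mouse are given for members with 50 CPM or more in their highest class (34) and Lamb3 by range; of the companion lists, up to 3 called genes with the largest difference in each direction are named. Members and lists were chosen with earlier results of these data known. Alternatives were other scaling, filters, gates, covariates, a replicate block and leaving out each mouse.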

Additional observations from a re-analysis of the deposited data

Results flagged for a closer look

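Of 68 groups of mice examined for a value far from the rest, 7 held such a value, where chance alone gives about 1 in 20. The fibroblasts of R182C-TgN3 6 months replicate 1 (6 cells) account for 4 of them: Lama1 was at 1343 CPM against 69.1 to 360 in the other CADASIL mice, Col4a6 at 554.7 CPM against 0 to 53.3, Nid1 at 729.8 CPM against 266 to 360, and Nid2 at 233.5 CPM against 29.9 to 78.5. Nid2 was also apart in fibroblasts of WT-TgN3 6 months replicate 1, at 163.9 CPM against 38.0 to 72.8 in the other control mice. Lama3 in fenestrated EC of WT-TgN3 9 months replicate 2 was low, at 185.3 CPM against 368 to 417 in the other control mice. Col4a5 in SMC of WT-TgN3 6 months replicate 2 was low, at 130.4 CPM against 166 to 177.

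Some matrix genes were read in cells that none of the comparisons used. Sparc stood at 1336 CPM in microglia (1109 to 1612 over 11 mice), above its mean in each vessel class, with a UMI in 91.4% of microglia (median depth 5076 UMIs) and 5.40% of lymphocytes (3847 UMIs), and after thinning to 2000 UMIs in 87.7% and 3.43%. Col15a1 was at 46.52 CPM in microglia (31.1 in the lowest mouse). Lymphocytes held Lamb3 at 95.73 CPM (63.1 to 138), the chain that was nearly empty in vessel classes, with a UMI in 28.4% of lymphocytes against 0.0820% of capillary EC (15.5% against 0.0160% after thinning), and Lamc1 at 79.49 CPM (55.1 to 115).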

How the results depend on the processing

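Of 221 class differences called for single genes, 195 held their call and direction under all 19 alternatives that gave a value, and 26 lost the call under at least 1. Values of opposite sign were Lama2 in venous against capillary EC (-0.26) and Fbn1 in pericytes against capillary EC (-2.21) with the limit on other classes halved, Sparc in pericytes against capillary EC with no such limit (0.038), Mfge8 in fibroblasts against capillary EC with up to 20% mitochondrial UMIs (-0.27; 44 fibroblasts and 298 pericytes then passed against 102 and 541), and Col18a1 in fibroblasts against SMC with the limit halved (-0.076) and up to 20% mitochondrial UMIs (-0.44). The cause was not tested. Leaving out each mouse gave counts of 23 to 25 genes in arterial, 25 to 28 in venous, 26 to 28 in fenestrated EC, 30 to 31 in SMC, 28 to 30 in pericytes and 29 to 32 in fibroblasts against capillary EC, 26 to 27 between SMC and pericytes and 26 to 28 between fibroblasts and SMC.

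The genotype counts stayed at 0 under every alternative run, shared barcodes kept included (chosen after seeing the data), except that no low-count filter gave 1 gene in fibroblasts (Col4a5). Of all genes, 0 to 36 were called in fibroblasts over the other settings. For age in capillary EC the count of 0 became 2 with no low-count filter (Lama2, Col5a2), 1 with no limit on other classes (Col5a2) and 2 with the DESeq2 Wald test. It ranged from 0 to 2 when each mouse was left out (2 without R182C-TgN3 9 months replicate 3 or without WT-TgN3 6 months replicate 2, 1 without R182C-TgN3 6 months replicate 3). The cause was not tested. Of all genes, 154 to 547 were called over the other settings and 31 to 400 without a mouse, against 195 in the main edgeR fit. Pairing mice of an age by replicate number as a block called 0 of the matrix genes it tested in each class (16 in pericytes to 28 in SMC). In the 4 EC classes and SMC, mice of the same number had residual correlations of -0.30 to 0.09, and of different numbers -0.20 to 0.31. Centring in groups of 2 or 3 mice fixes part of these values, and pericytes and fibroblasts were not checked. All 83 alternatives for the Col4a1 to Col4a2 ratio gave a value within the spread or on the same side of the threshold. Levels in the highest class moved by more than the SD over mice in 5 of 175 alternatives, in pericytes with no limit on other classes (Lamc1, Mfge8 and Sod3, each lower) and in fibroblasts with up to 20% mitochondrial UMIs (Lama2 and Fbn1, each higher). Shares of cells with a UMI moved in 63 of 70 when depth was not thinned or thinned to 1000 UMIs. Not run were fibroblasts by genotype with up to 20% mitochondrial UMIs and a minimum of 50 cells for pericytes and fibroblasts. The number of cells limits the values of the 102 fibroblasts and 541 pericytes.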
